A study of Mus musculus with 36 samples.

Results

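HP1a-deficient (KO) and wild-type (WT) naive CD4+ T cells were compared by RNA-seq over the 6 libraries that the sample titles place in these groups, 3 of each genotype, out of 36 libraries in the series. The study followed CD4+ T cells that lacked HP1a or HP1g in 3 settings: naive cells, conventional T cells (Tconv) re-isolated from bone-marrow-grafted hosts, and Tconv from hosts that had also received regulatory T cells (Treg). The naive comparison asks what the loss of HP1a changed before any immune challenge. KO mice were Hp1a-/- and WT mice were Hp1a+/+ littermates from an intercross of Hp1a+/- parents, in which the floxed Hp1a sequence had been excised with a CMV-cre transgene. The mutation was therefore carried by every cell of the animal and was not limited to T cells. The line was kept on a background mixed from C57BL/6 and another inbred strain, and the young adult animals were sex-matched. Naive cells (CD4+CD62L+CD44-/low) were obtained from the spleen by negative selection, were not treated, and picogram amounts of RNA were amplified by the SMART-Seq method. The labels do not say what a replicate number marks, or whether a library came from 1 mouse or from a pool, so the p-values measure the spread between these libraries.

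HP1 proteins are the readers of silent chromatin. They bind histone H3 methylated on lysine 9, recruit further silencing enzymes and hold heterochromatin in a compact state. Mammals have HP1a, HP1b and HP1g, encoded by Cbx5, Cbx1 and Cbx3. In many cell types this pathway keeps pericentromeric repeats, transposons, germline genes and clusters of zinc finger genes inactive, and in T helper cells it has been linked to the silencing of genes of other lineages.

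The 6 libraries held 41668028 to 63042245 estimated counts and 21441 to 22949 detected genes, and mitochondrial transcripts took 1.60 to 1.83% of the counts. At this depth 3 counts correspond to 0.0464 to 0.0735 CPM (counts scaled to the library's total), the unit of all levels given here. The cells carried the markers of naive T cells: the 18 genes of the naive identity list (among them Ccr7, Tcf7 and Lef1) summed to 15880 to 18051 CPM per library, and the 20 genes of the T cell receptor (TCR) complex and its proximal signalling to 13280 to 14843 CPM. Markers of other cells had lower sums but were present. The 10 B cell markers summed to 6.45 to 9.64 CPM with 6 of them under 1 CPM in every library, the 10 myeloid markers to 47.5 to 56.9 CPM, and the 8 markers of CD8 T and NK cells to 43.1 to 57.1 CPM. Sums were larger for the 8 stromal and endothelial markers, at 186 to 284 CPM with 7 of them under 1 CPM in every library. The 8 MHC class II genes summed to 125 to 150 CPM and the 6 erythroid markers to 39.6 to 185 CPM.

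Replicate 1 stood apart from the others in both genotypes. On the log scale, the replicate 1 libraries of WT and KO correlated with each other at 0.989, but with the libraries of other numbers at only 0.969 to 0.975, whereas libraries of replicates 2 and 3 correlated at 0.985 to 0.989. For the median gene, the replicate number took 65.9% of the sum of squares and the genotype 7.36%. Of 15549 genes tested, 1138 (7.32%) differed between replicate numbers (adjusted p under 0.05 and a span above 1 on the log2 scale), 864 (5.56%) of them higher in replicate 1 and 274 (1.76%) lower.

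The genes with the clearest difference between replicate numbers were genes that respond to stimulation within minutes to hours. Tnfaip3, which encodes the NF-kB inhibitor A20, was at 2403 CPM in WT replicate 1 and 2748 CPM in KO replicate 1, against 188 to 228 CPM in the other 4 libraries. Dusp5, an ERK phosphatase, was at 988 and 1090.2 CPM against 69.0 to 85.1 CPM. Nr4a3, an orphan nuclear receptor induced by TCR signals, was at 70.9 and 76.4 CPM against 2.74 to 3.37 CPM, and the AP-1 component Fosl2 was at 80.0 and 78.2 CPM against 2.74 to 3.80 CPM. In each of these genes replicate 1 was far above the other libraries, and WT and KO lay side by side within a number. Dusp10, Plk2, Rgs2 and Sik1 had the same order. Of 27 tested members of the immediate early and dissociation list, 19 differed between replicate numbers, all higher in replicate 1, and the list summed to 20232 CPM in WT and 20528 CPM in KO replicate 1 against 8486 to 9642 CPM elsewhere.

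**Figure D1:**
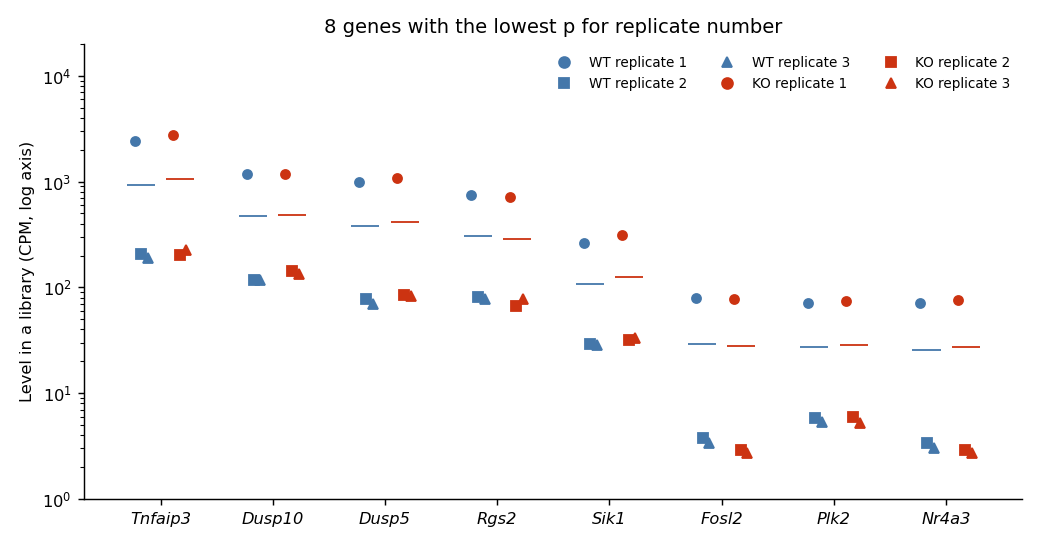
Levels (CPM, log axis) of the 8 genes with the lowest p for replicate number in the 6 naive libraries, with WT in blue, KO in red, a marker shape for each replicate number and a line at each group mean. Replicate 1 of both genotypes sits far above replicates 2 and 3, for example at 988 and 1090.2 CPM against 69.0 to 85.1 CPM for Dusp5.

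Libraries with the same number also deviated together from their group means, with correlations of 0.654, 0.287 and 0.356 for replicates 1, 2 and 3. By this measure the numbers paired the libraries, so each result was also computed with the replicate number as a block. Apart from replicate 1 the pairing was weak, as WT replicate 2 correlated with KO replicate 3 at 0.267 and WT replicate 3 with KO replicate 2 at 0.332.

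Without the block no gene was called: 0 of 15549 genes (0%) had an adjusted p under 0.05 and an absolute log2 fold change above 1 in edgeR's quasi-likelihood test. At an unadjusted p under 0.05 there were 291 genes (1.87%), 162 of them higher (1.04%) and the others lower (0.83%) in KO, and DESeq2 called 15. With the replicate block, 12 genes passed both thresholds (0.0772%), of which 6 were higher (0.0386%) and 6 lower (0.0386%) in KO. At an unadjusted p under 0.05 the blocked test gave 1372 genes (8.82%), of which 831 were higher (5.34%) and 541 lower (3.48%). The KO libraries all lay above the WT libraries in 594 genes (3.82%) and all below them in 448 (2.88%). As replicate 1 stood apart, the test was also run without both replicate 1 libraries and with no block, which called 26 genes, 9 of them among the 12. In the blocked test, leaving out replicate 1, 2 or 3 of both genotypes gave 24, 18 and 24 called genes, with 9, 8 and 10 of the 12 among them. Zfp345 was lost each time, Zfp781 without replicate 1 or 2, Cbx5 without replicate 2 or 3, Auts2 without replicate 1 and BC024063 without replicate 2. In whole-cell RNA from bulk samples, fewer cells of a type and less RNA per cell cannot be told apart.

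**Figure D2:**
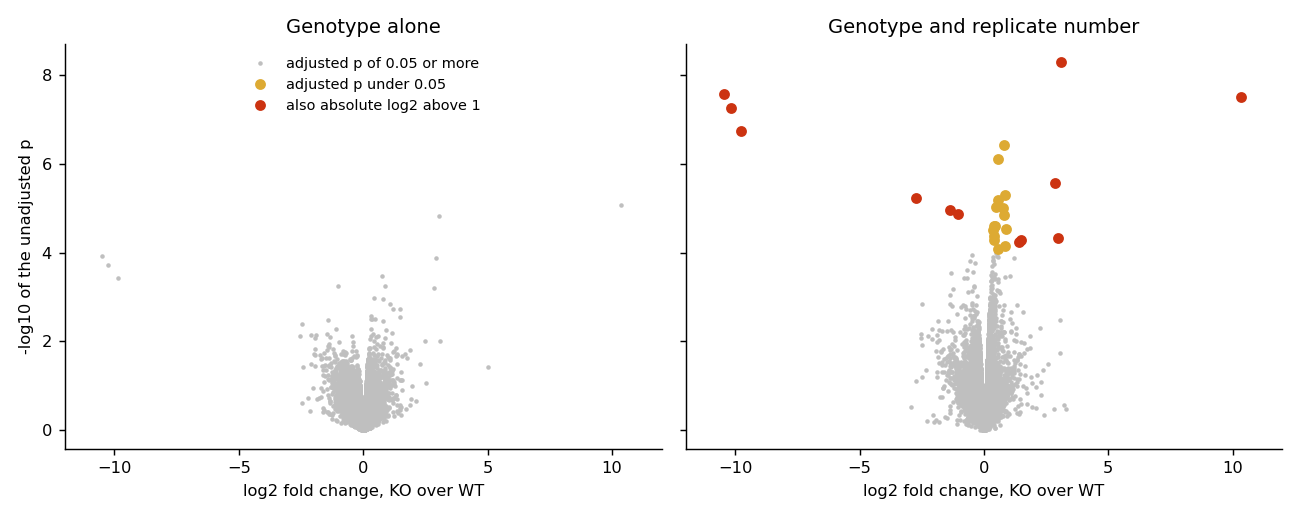
Log2 fold change of KO over WT (x axis) and -log10 of the unadjusted p (y axis) for 15549 genes, fitted with genotype alone (left) or with genotype and replicate number (right). Red points are the called genes, 0 on the left and 12 on the right, and yellow points are the 15 genes with an adjusted p under 0.05 and a change of at most 1 on the log2 scale, which are all higher in KO.

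Among the HP1 genes, only the targeted gene was called with the block. Cbx5 (chr15:103099505-103148419, GRCm39), which encodes HP1a, was at 19.7, 25.1 and 25.7 CPM in WT and at 13.2, 9.55 and 11.7 CPM in KO replicates 1 to 3. All KO libraries lay below all WT libraries, but none was near 0. The log2 fold change was -1.03 (SE 0.17), with an unadjusted p of 0.000553 and, with the block, an adjusted p of 0.0139. KO cells thus held 48.9% of the WT level of Cbx5 RNA. The table gives 1 value for the whole gene and does not resolve the excised part, so the remaining counts do not bear on the protein. Cbx5 overlaps Hnrnpa1 on the opposite strand, which was at 172 to 218 CPM in WT and 156 to 206 CPM in KO, and the library kit is not stated to keep the strand.

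The 2 other HP1 genes differed less between the genotypes. Cbx1, for HP1b, was at 50.3, 48.8 and 45.7 CPM in WT and at 41.9, 41.3 and 40.3 CPM in KO. The groups did not overlap, and KO was lower by a small amount, with a log2 fold change of -0.23 (SE 0.08), an unadjusted p of 0.0205 and an adjusted p of 0.321 with the block. Cbx3, for HP1g, overlapped between the groups at 141 to 152 CPM in WT and 145 to 164 CPM in KO, with a log2 fold change of 0.05 (SE 0.08). Per kilobase of exon, mean WT levels were 2.27 CPM for Cbx5, 7.61 CPM for Cbx1 and 23.3 CPM for Cbx3, so Cbx5 was the HP1 gene of lowest level per length in these cells. In KO the same levels were 1.11, 6.49 and 24.2 CPM per kilobase.

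**Figure D3:**
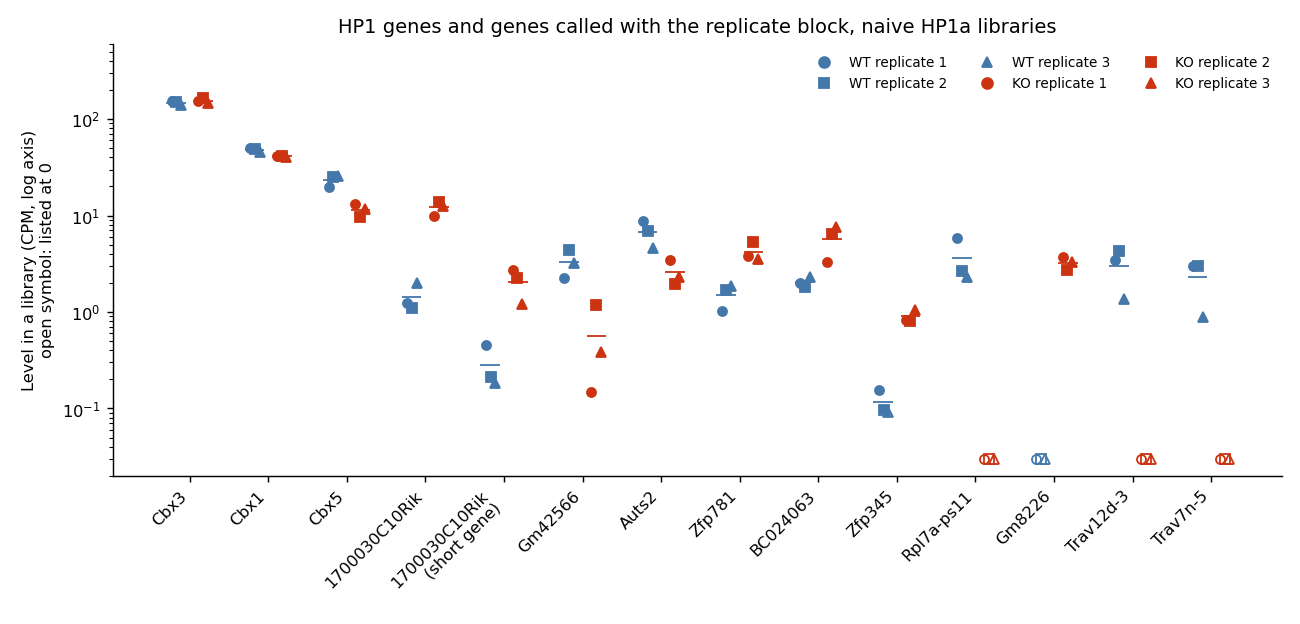
Levels (CPM, log axis) of the 3 HP1 genes and of the 12 genes called with the replicate block in the 6 naive libraries, with WT in blue, KO in red, a marker shape for each replicate number, a line at each group mean and open symbols for values listed at 0. Cbx3 and Cbx1 lie close together in both genotypes, whereas Cbx5 is at 19.7 to 25.7 CPM in WT and 9.55 to 13.2 CPM in KO.

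The lowest p of all genes, with the block, was that of 1700030C10Rik (ENSMUSG00000099759, chr12:20854368-20865839, GRCm39), a long non-coding RNA gene. It was at 1.23, 1.09 and 1.99 CPM in WT and at 9.85, 13.9 and 12.6 CPM in KO. Every KO library was well above every WT library, with a log2 fold change of 3.07 (SE 0.29) and an adjusted p of 0.116 without the block and 8.22e-05 with it. A second, short gene of the same symbol (ENSMUSG00000091071, chr12:20865347-20865472) lies inside the end of the long one on the same strand, and 100% of its stretches of 50 bases also occur in other genes, the long one among them. Its values were 0.450, 0.214 and 0.185 CPM in WT and 2.70, 2.26 and 1.21 CPM in KO, and reads of the overlap cannot be told apart. With both genes summed, the levels were 1.68, 1.30 and 2.18 CPM in WT and 12.6, 16.1 and 13.8 CPM in KO, with p = 0.1 in an exact two-sided permutation test, the smallest that 3 against 3 libraries allow.

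Of the 6 genes that were lower in KO with the block, Cbx5, Gm42566 and Auts2 kept counts in the KO libraries. Gm42566 (chr5:64721520-64722162), a transcribed region without a known product, was at 2.25, 4.40 and 3.20 CPM in WT and at 0.147, 1.18 and 0.389 CPM in KO. The groups did not overlap, and the log2 fold change was -2.52 (SE 0.68), with an adjusted p of 0.00931 with the block. Of its stretches of 50 bases, 91.6% also occur in other genes, so its reads may be shared. Auts2 (chr5:131466171-132572183), known for its role in neuronal development, was at 8.75, 6.95 and 4.64 CPM in WT and at 3.46, 1.97 and 2.29 CPM in KO. All KO libraries were below the WT libraries, with a log2 fold change of -1.40 (SE 0.32) and an adjusted p of 0.0122 with the block.

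The remaining calls included zinc finger genes, a family of DNA-binding proteins whose members often recruit the KAP1 silencing complex to transposons. Zfp781, BC024063 and Gm3055 lie within 380 kb of each other on chromosome 10 (chr10:81578655-81958762, GRCm39). Their promoter windows in RefSeq (250 bases before to 50 after the start, build GRCm38.p6) are shown because they are near-copies of each other. Those of Gm3055 (chr10:81771125-81771424, minus strand) and Zfp781 (chr10:81930463-81930762, minus strand) had 300 of 300 bases in common, and that of BC024063 (chr10:82083070-82083369, plus strand) shared 279 of 288 aligned bases (96.9%) with them. The window of Zfp345 (chr2:150485014-150485313, minus strand), a called zinc finger gene on another chromosome, shared 172 of 236 aligned bases (72.9%) with that of Gm3055. The windows of Zfp433 and Zfp938, chromosome 10 genes that were not called, shared 71.8% and 73.6% of aligned bases with that of Gm3055. This likeness was thus not particular to called genes. Gaps do not count in these shares. Capitals mark CCAATCAG, a CCAAT box with its flank.
Gm3055 and Zfp781: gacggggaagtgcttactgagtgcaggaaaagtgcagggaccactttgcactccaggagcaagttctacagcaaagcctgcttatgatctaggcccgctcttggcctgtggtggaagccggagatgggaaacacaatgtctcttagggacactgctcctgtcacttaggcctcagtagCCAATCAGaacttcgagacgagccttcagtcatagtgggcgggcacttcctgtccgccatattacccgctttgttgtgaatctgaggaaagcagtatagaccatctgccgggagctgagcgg
BC024063: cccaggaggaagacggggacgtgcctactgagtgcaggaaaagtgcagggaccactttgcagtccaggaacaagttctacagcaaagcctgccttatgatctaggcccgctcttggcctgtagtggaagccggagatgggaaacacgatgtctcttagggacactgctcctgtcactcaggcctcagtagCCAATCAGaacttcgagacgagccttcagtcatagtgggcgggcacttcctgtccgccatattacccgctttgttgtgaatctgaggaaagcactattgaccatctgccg
Zfp345: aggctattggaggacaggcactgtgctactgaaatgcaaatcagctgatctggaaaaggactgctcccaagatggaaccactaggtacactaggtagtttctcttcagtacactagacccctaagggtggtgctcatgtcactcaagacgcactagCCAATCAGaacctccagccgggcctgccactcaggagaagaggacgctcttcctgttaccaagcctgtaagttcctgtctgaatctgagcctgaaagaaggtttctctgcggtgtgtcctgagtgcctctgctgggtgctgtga
Searched on both strands, CCAATCAG occurred in 4.1% of all 32851 promoter windows, in 5.96% of those of the genes tested and in 14.8% of those of genes with a Zfp symbol. These shares count windows, of which a symbol can have several. The motif occurred in at least 1 window of 6 of the 19 symbols matched among genes with an adjusted p under 0.05 in the blocked test, namely Gm3055, Zfp781, BC024063, Zfp345, Zfp951 and Adk. The windows of Gm3055, Zfp781 and BC024063 are near-copies, and all of the 6 but Adk are zinc finger genes. The 6 are therefore not independent, and their number was not tested against these shares. Symbols that share an identical window with another symbol made up 1.81% of 27025.

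All 3 genes of the chromosome 10 group were higher in KO. Zfp781 was at 1.02, 1.69 and 1.84 CPM in WT and at 3.80, 5.25 and 3.54 CPM in KO, a log2 fold change of 1.46 (SE 0.30) with an adjusted p of 0.0347 with the block. BC024063 was at 2.02, 1.83 and 2.33 CPM in WT and at 3.28, 6.43 and 7.56 CPM in KO, a log2 fold change of 1.48 (SE 0.33) with an adjusted p of 0.0355 with the block. Gm3055 was at 4.11, 4.61 and 5.89 CPM in WT and at 6.54, 9.98 and 10.3 CPM in KO, and its log2 fold change of 0.87 (SE 0.24; adjusted p of 0.0425 with the block) was under the fold threshold. None of the 3 overlapped between the groups, and in BC024063 and Gm3055 the lowest KO value was that of replicate 1. As 96.4%, 50.5% and 94.7% of the stretches of 50 bases of Zfp781, BC024063 and Gm3055 also occur in other genes, reads can be divided between them. Their sum, which does not depend on the division among the 3, was 7.14, 8.14 and 10.1 CPM in WT and 13.6, 21.7 and 21.4 CPM in KO, with log2 of the ratio of means at 1.16 and p = 0.1, the smallest possible, in the exact permutation test. Of 41 genes tested within 500 kb of the group, only the 3 that define it were higher and 0 were lower at an unadjusted p under 0.05. Over all genes 1.04% were higher at that p. With the block 7 were higher and 0 lower, where 5.34% of all genes were higher. These 7 were the same 3 with Matk, Zfp433, Zfp938 and Gm4924. As the 3 were chosen by their p, they say nothing about their neighbours. Zfp345, at 0.157, 0.0973 and 0.0927 CPM in WT and at 0.833, 0.816 and 1.05 CPM in KO, was also called higher, with a log2 fold change of 2.95 (SE 0.39) and an adjusted p of 0.0334 with the block, at levels of which those in WT are close to the limit of 3 counts. Of the stretches of 50 bases of Zfp345, 35% also occur across 107 other genes, so its reads may be shared too.

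The 4 calls with the widest fold changes involved genes listed at 0 in 1 genotype, and each of these genes has copies of the same sequence. Rpl7a-ps11 (chrX:165637207-165638007, GRCm39) was at 5.91, 2.67 and 2.33 CPM in WT and at 0 in the 3 KO libraries, at least 53.5-fold lower in KO when set against the floor of 3 counts per library (adjusted p of 0.000161 with the block). Gm8226 (chr9:84306037-84306834) was at 0 in the 3 WT libraries and at 3.70, 2.71 and 3.31 CPM in KO, at least 59.4-fold higher (adjusted p of 0.000161 with the block). Both are processed pseudogenes of Rpl7a, a ribosomal protein gene, and 100% of the stretches of 50 bases of each occur in other genes. Summed, the 2 pseudogenes were at 5.91, 2.67 and 2.33 CPM in WT and at 3.70, 2.71 and 3.31 CPM in KO, so the groups overlapped (exact permutation p of 1). Rpl7a itself was at 178 to 256 CPM in WT and 181 to 222 CPM in KO.

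The 2 other genes were segments of the TCR alpha chain on chromosome 14. Trav12d-3 (chr14:53167246-53167739) was at 3.48, 4.24 and 1.38 CPM in WT and at 0 in KO, at least 44.7-fold lower (adjusted p of 0.000222 with the block). Its copy Trav12n-3 ran the other way, at 1.96, 0.409 and 3.97 CPM in WT and at 5.32, 4.97 and 5.09 CPM in KO, and the sum of both was 5.44, 4.65 and 5.35 CPM in WT and 5.32, 4.97 and 5.09 CPM in KO (exact permutation p of 0.9). Trav7n-5 (chr14:53384376-53384905) was at 2.97, 2.98 and 0.896 CPM in WT and at 0 in KO, at least 33.6-fold lower (adjusted p of 0.000578 with the block). Its sum with the copies Trav7d-5 and Trav7-5 was 7.97, 7.16 and 8.25 CPM in WT and 8.09, 8.13 and 7.89 CPM in KO (exact permutation p of 0.7). The single copies separated the genotypes, whereas the sums over copies overlapped in each of these 3 families. Whether the counting divided reads between copies unevenly was not tested.

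**Figure D4:**
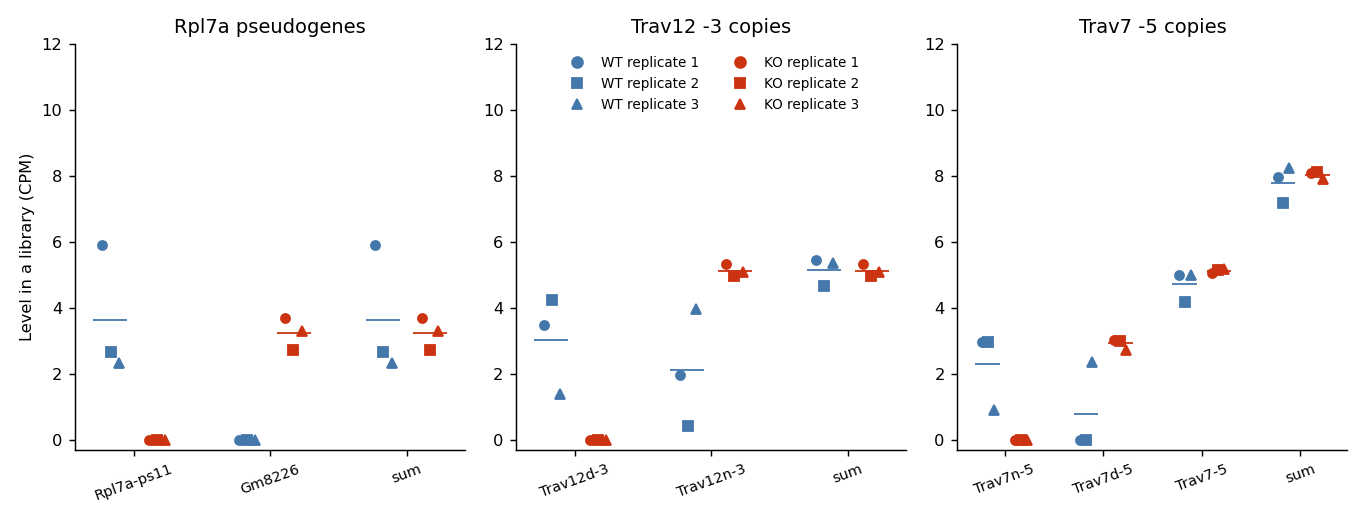
Levels (CPM) of genes listed at 0 in 1 genotype, of the copies that share their sequence, and of the sum over copies, in the 6 naive libraries (WT in blue, KO in red, a marker shape for each replicate number, a line at each group mean). Single copies such as Rpl7a-ps11 and Gm8226 separate the genotypes, but the sums overlap, at 4.65 to 5.44 CPM in WT and 4.97 to 5.32 CPM in KO for the Trav12 pair.

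With no threshold on the fold change, 27 genes (0.174%) had an adjusted p under 0.05 with the block, 21 higher and 6 lower in KO. The 15 that were not called were all higher, by 0.37 to 0.91 on the log2 scale, and are named here because of this p. Pde2a, a phosphodiesterase that degrades cAMP and cGMP, was at 77.7, 79.2 and 82.2 CPM in WT and at 116, 176 and 145 CPM in KO. The KO libraries were all above the WT libraries, with a log2 fold change of 0.87 (SE 0.15) and an adjusted p of 0.00868 with the block. Of the stretches of 50 bases of Pde2a, 45.5% also occur in Gm45837, which overlaps it on the same strand, so reads can be divided between them. Art2b, a cell-surface ADP-ribosyltransferase of T cells whose gene lies next to Pde2a within 164 kb on chromosome 7, was at 46.3, 56.7 and 49.9 CPM in WT and at 58.5, 102 and 68.2 CPM in KO, with a log2 fold change of 0.58 (SE 0.21; adjusted p of 0.0477 with the block). Of 24 genes tested within 500 kb of this pair, 3 were higher and 0 lower at an unadjusted p under 0.05, where 1.04% of all genes were higher. They were the pair itself, which had been chosen by its p, and the predicted gene Gm19765.

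Igsf23, of the immunoglobulin superfamily, was at 18.5, 24.6 and 23.7 CPM in WT and at 30.2, 45.7 and 40.4 CPM in KO (log2 fold change 0.80, SE 0.18; adjusted p of 0.000997 with the block). Ckb, the brain-type creatine kinase, was at 26.3, 25.6 and 25.9 CPM in WT and at 36.9, 55.9 and 44.3 CPM in KO (0.82, SE 0.15; 0.0139). Zfp951, a zinc finger gene on chromosome 5, was at 12.3, 13.1 and 11.6 CPM in WT and at 22.2, 19.5 and 20.9 CPM in KO (0.76, SE 0.12; 0.0122). These 3 genes did not overlap between the genotypes, nor did Atp9a, a phospholipid flippase, at 5.83 to 7.34 CPM in WT and 8.70 to 14.9 CPM in KO. The enzymes Adk (adenosine kinase), Ugcg (glucosylceramide synthase), Gpcpd1 and Acpp were also separate, with log2 fold changes of 0.44, 0.40, 0.49 and 0.55. In Trim59, Dusp6, Tagap and Pdk1, by contrast, the genotypes overlapped, and KO was higher only within each replicate number. Tagap, a GTPase-activating protein of activated T cells, shows this best: WT was at 603, 175 and 198 CPM and KO at 785, 238 and 245 CPM, so that replicate 1 of WT exceeded replicates 2 and 3 of KO. Its log2 fold change was 0.38 with an SE of 0.66 without the block and of 0.06 with it.

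Among genes that averaged 5 CPM or more, with no overlap between the groups and an unadjusted p under 0.05, those with the highest and lowest log2 fold changes were also read. Arrdc3, an alpha-arrestin, had the highest value, at 32.9, 29.4 and 41.6 CPM in WT and 43.8, 99.4 and 91.7 CPM in KO. Its log2 fold change was 1.18 (SE 0.31), and replicate 1 of KO lay just above the WT libraries. Slc28a2b, a nucleoside transporter gene, was at 92.6, 168 and 89.5 CPM in WT and at 196, 197 and 218 CPM in KO (0.80, SE 0.24), and Zfp169 was at 9.88, 9.52 and 10.9 CPM in WT and at 12.3, 20.7 and 15.7 CPM in KO (0.68, SE 0.20). None of the 3 passed adjustment in edgeR, with adjusted p of 0.591, 0.590 and 0.182 with the block. DESeq2 without the block called Arrdc3 (adjusted p of 0.042), DESeq2 with the block gave Zfp169 an adjusted p of 0.021, and Slc28a2b was called by edgeR in the blocked test without replicate 2.

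At the other end, after Cbx5, stood Chil5, a chitinase-like gene, at 8.24, 8.62 and 8.65 CPM in WT and 7.23, 4.85 and 3.91 CPM in KO (-0.68, SE 0.24). App, the amyloid precursor gene, was at 35.9, 34.7 and 40.1 CPM in WT and at 22.8, 27.9 and 29.4 CPM in KO (-0.47, SE 0.13). Cdc14b, Zfp268, Kif23, Hdgfl3 and Car2 had log2 fold changes of -0.48 to -0.38. None of these 7 genes passed adjustment in either fit, and their adjusted p with the block ran from 0.061 for App to 0.419 for Car2.

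None of the genes that define the naive state was called, and most of their log2 fold changes were positive. Of the 18 naive identity genes, 17 had a positive log2 fold change, as did 7717 of all 15549 genes tested. At an unadjusted p under 0.05, 1 of the 18 was higher and 0 lower, where 1.04% of all genes were higher and 0.83% lower. With the block 7 were higher and 0 lower at that p, where 5.34% of all genes were higher. The median log2 fold change of the 18 was 0.13, against -0.001 over all genes tested, with Id3 highest at 0.30 (SE 0.19). Their sum was 17285 to 18051 CPM in KO and 15880 to 16127 CPM in WT, with no overlap (p = 0.1, the smallest possible, exact permutation test). The 20 genes of the TCR complex and proximal signalling had a median of 0.07. At an unadjusted p under 0.05 with the block, 5 of the 20 were higher and 0 lower, where 5.34% of all genes were higher. The 20 summed to 14233 to 14843 CPM in KO and 13280 to 14100 CPM in WT (exact permutation p of 0.1). Cd6, a co-receptor of the T cell synapse, was highest, at 698, 728 and 704 CPM in WT and at 800.1, 861 and 823 CPM in KO (log2 fold change 0.22, SE 0.07; adjusted p of 0.230 with the block), and Zbtb7b, the CD4 lineage factor ThPOK, was lowest at -0.13 (SE 0.15).

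Regulatory T cell genes showed the largest median of the T cell lists. Of 10 genes tested, 3 were higher and 0 lower at an unadjusted p under 0.05, where 1.04% of all genes were higher, and 7 and 0 with the block, where 5.34% were. Their median log2 fold change was 0.37, with a sum of 242 to 264 CPM in KO against 192 to 227 CPM in WT (p = 0.1, the smallest possible, exact permutation test). Nt5e, which encodes the ectonucleotidase CD73, was at 17.3, 29.2 and 28.0 CPM in WT and at 33.6, 41.6 and 34.0 CPM in KO, with no overlap (0.55, SE 0.21; adjusted p of 0.129 with the block). Izumo1r, for the folate receptor FR4, was at 61.6, 56.5 and 56.4 CPM in WT and at 61.5, 89.5 and 78.3 CPM in KO, where replicate 1 of KO was at the WT level (0.39, SE 0.14). Gpr83 had a log2 fold change of 0.34 (SE 0.14). The defining factor Foxp3, at 6.94 to 8.67 CPM in WT and 8.04 to 11.5 CPM in KO, overlapped between the groups (0.32, SE 0.19), Lrrc32 was at 0.66 (SE 0.63) and Ikzf2 at -0.16 (SE 0.37). None of these genes was called.

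Lists of activated and differentiated T cells had medians nearer to 0. Activated and memory T cell genes had a median log2 fold change of 0.03 over 20 genes. Of these, 1 was higher and 0 lower at an unadjusted p under 0.05, where 1.04% of all genes were higher. With the block 4 were higher and 2 lower at that p, where 5.34% of all genes were higher and 3.48% lower. Il2ra, the IL-2 receptor alpha chain, was at 0.45 (SE 0.20) and Id2 at -0.65 (SE 0.37), and 5 of the 20 differed between replicate numbers. T helper 1 genes had a median of 0.02 over 8 genes, and the highest value among those of at least 1 CPM was that of Stat4, the IL-12 signal transducer, at 0.35 (SE 0.13; 118, 139 and 141 CPM in WT, 141, 193 and 174 CPM in KO), and the lowest that of Il18r1 at -0.19 (SE 0.14). T helper 2 genes (5 tested) had a median of 0.10, T helper 17 genes (4 tested) of -0.01 and inhibitory receptors (9 tested) of 0.04. At an unadjusted p under 0.05 with the block, 1 T helper 1 gene was higher and 1 lower. At that p 1 T helper 2 gene and 2 inhibitory receptor genes were higher, and 0 of either list lower. Immediate early genes had a median of 0.03 over 27 genes, with Egr1 at 0.37 (SE 0.46). At an unadjusted p under 0.05, 0 of the 27 were higher and 0 lower. With the block 7 were higher and 1 lower, where 5.34% of all genes were higher and 3.48% lower. Genes of DNA replication and mitosis had a median of -0.02 over 20 genes. Of the type I interferon-stimulated genes 25 of 31 had negative values, as did 7832 of all 15549 genes tested, and the median of the 31 was -0.12. At an unadjusted p under 0.05 with the block, 0 of the 31 were higher and 5 lower, where 3.48% of all genes were lower. Ifi44 was lowest at -1.39 (SE 0.52), with 1.86, 5.72 and 3.11 CPM in WT and 0.735, 1.22 and 2.10 CPM in KO, and Parp14 was highest at 0.09 (SE 0.23).

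No gene of the silencing machinery other than Cbx5 was called. Of 27 genes of H3K9 methylation and KAP1 silencing, 0 were called. At an unadjusted p under 0.05, 0 were higher and 1 lower, where 0.83% of all genes were lower. With the block 3 were higher and 2 lower at that p, where 5.34% of all genes were higher and 3.48% lower. The median log2 fold change was 0.03. Among genes of at least 1 CPM, values ran from -0.36 (SE 0.26) for Chaf1a, a histone chaperone, to 0.22 (SE 0.30) for Adnp. The 32 histone genes tested had a median of -0.06, from H4c14 at -0.54 (SE 0.33) to the linker histone H1f0 at 0.41 (SE 0.26) among those of at least 1 CPM.

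Gene groups that heterochromatin often silences were mostly below the filter on low counts. Counts were high enough for testing in 7 of 30 germline genes, with a median log2 fold change of 0.33. At an unadjusted p under 0.05, 1 was higher and 0 lower, where 1.04% of all genes were higher and 0.83% lower. The sum over all 30 was 6.96 to 7.70 CPM in KO and 5.04 to 6.79 CPM in WT (p = 0.1, the smallest possible, exact permutation test). Rec8, the meiotic cohesin, was at 1.15, 0.857 and 0.664 CPM in WT and at 1.40, 1.46 and 1.54 CPM in KO (0.72, SE 0.29), and Brdt, a testis bromodomain gene, was at 0.33 (SE 0.24). Of 1475 olfactory and vomeronasal receptor genes 13 were tested, and 2 were higher and 0 lower at an unadjusted p under 0.05, beside the same shares. The sum over all was 91.1 to 118 CPM in KO and 82.7 to 90.5 CPM in WT (exact permutation p of 0.1). Vmn2r96, a vomeronasal receptor gene, was at 1.64, 1.89 and 1.78 CPM in WT and at 4.14, 3.84 and 3.15 CPM in KO (1.07, SE 0.21; adjusted p of 0.114 with the block). Of 58 clustered protocadherin genes 12 were tested, with a median of -0.06, and 1 was higher and 1 lower at an unadjusted p under 0.05, beside the same shares. Of 319 Zfp genes tested, 214 had a positive log2 fold change, as did 7717 of all 15549 genes tested. At an unadjusted p under 0.05, 9 of the 319 were higher and 3 lower, where the shares over all genes were 1.04% and 0.83%. With the block 26 were higher and 6 lower, where these shares were 5.34% and 3.48%. The median was 0.05 and, among genes of at least 1 CPM, the lowest value was that of Zfp965 at -1.22 (SE 1.40). Of the Zfp genes, 12 lay wholly above WT and 3 wholly below, where the shares over all genes were 3.82% and 2.88%.

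Genes around the targeted gene had a median close to that of all genes. Of 100 genes tested within 5 Mb of Cbx5, 0 were called, and their median log2 fold change was 0.004. At an unadjusted p under 0.05, 3 were higher and 0 lower, where 1.04% of all genes were higher and 0.83% lower. With the block 5 were higher and 3 lower, where these shares were 5.34% and 3.48%. The 3 that were higher without the block were Fmnl3, a formin, at 0.36 (SE 0.08), Slc4a8, a bicarbonate transporter gene, at 0.59 (SE 0.16), and Galnt6, an enzyme of O-glycosylation, at 0.19 (SE 0.07). Over the 576 other genes tested on chromosome 15 the median was -0.004. Of these, 10 were higher and 2 lower at an unadjusted p under 0.05 without the block, where 1.04% and 0.83% of all genes were.

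Erythroid markers overlapped between the genotypes across replicate numbers, but were higher in KO within each number for Hbb-bt and Hbb-bs. Hbb-bt was at 5.40, 11.7 and 6.32 CPM in WT and 5.49, 27.1 and 17.4 CPM in KO, and Hbb-bs at 16.5, 46.0 and 19.3 CPM and at 18.5, 69.5 and 49.1 CPM. The 6 erythroid markers summed to 39.6 to 104 CPM in WT and 44.1 to 185 CPM in KO, and all 5 tested had positive log2 fold changes, of 0.74 to 1.09, with 0 at an unadjusted p under 0.05 and 3 higher at that p with the block, where 5.34% of all genes were higher. The part of these markers in other results was not tested. Sums of the 8 MHC class II genes were 129.8 to 150.2 CPM in KO and 125 to 133 CPM in WT, and 4 myeloid genes, 7 B cell genes, 4 CD8 or NK genes and 1 of 8 stromal genes were tested with 0 at an unadjusted p under 0.05. With the block 1 MHC class II gene, 1 CD8 or NK gene and the stromal gene were higher at that p, and 0 of the myeloid and B cell genes. Of 87 cytosolic ribosomal protein genes 82 had a negative value, as did 7832 of all 15549 genes tested, and the median of the 87 was -0.06. At an unadjusted p under 0.05, 1 of the 87 was lower without the block and 2 with it, where 0.83% and 3.48% of all genes were. The sum over the list overlapped, at 37408 to 42169 CPM in KO and 34583 to 47675 CPM in WT (exact permutation p of 0.8). The 13 mitochondrially encoded genes had a median of 0.07.

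The genes called in naive cells were then read in libraries that had not chosen them. HP1a Tconv gave 9 tested genes of the 12, of which 7 had an unadjusted p under 0.05 in the same direction. These were Cbx5, which the mutation itself targets, both genes named 1700030C10Rik, which overlap, Gm42566, Zfp345, Zfp781 and BC024063. Zfp781 and BC024063 share sequence, so the 7 are not independent of each other. In that comparison, 761 of 15521 genes (4.9%) were higher and 563 (3.63%) lower at this p, and 16 (0.103%) were called, among them 2 of the 9. In Tconv from hosts with Treg 4 of 10 tested genes had such a p in the same direction, where 995 of 16256 genes (6.12%) were higher, 980 (6.03%) lower and 20 (0.123%) called. These 4 were Cbx5, both genes named 1700030C10Rik and Gm42566. In naive cells of the HP1g line, whose WT and KO mice both carried floxed Hp1g and whose KO mice had Cd4-cre, 2 of 8 tested genes had it, where 432 of 14939 genes (2.89%) were higher, 431 (2.89%) lower and 1 (0.00669%) called. These 2 were Zfp781 and BC024063. Of all 27 genes with an adjusted p under 0.05 in the blocked test, 8 of 24, 7 of 25 and 8 of 23 tested genes had such a p in the same direction in these 3 comparisons.

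The difference at 1700030C10Rik was present in each HP1a comparison. The long gene was at 0.346 to 0.538 CPM in WT Tconv and 10.9 to 17.8 CPM in KO Tconv, with a log2 fold change of 5.08 (SE 0.28; adjusted p of 0.00036). With Treg the values were 0.0898 to 0.770 CPM in WT and 9.44 to 14.2 CPM in KO (5.02, SE 0.73). In naive cells of the HP1g line, WT was at 1.39, 1.14 and 0.788 CPM and KO at 1.22, 2.26 and 0.851 CPM, which overlapped (0.38, SE 0.42). The difference of the naive KO effects between the lines was 2.73 with an unadjusted p of 0.0002 and an adjusted p of 0.806. Gm42566 had the same order in the opposite direction, with log2 fold changes of -3.80 (SE 0.40; adjusted p of 0.0152) in Tconv, -3.89 (SE 0.63) with Treg and -0.16 (SE 0.84) in the HP1g line.

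Cbx5 was lower in KO Tconv by a log2 fold change of -0.89 (SE 0.11; adjusted p of 0.0331) and with Treg of -1.42 (SE 0.25), but at -0.12 (SE 0.14) in the HP1g line. Cbx5 was thus lower in the line that carries its mutation. Zfp345 was at 0.0266 to 0.295 CPM in WT Tconv and 0.410 to 0.896 CPM in KO Tconv (2.33, SE 0.76). The pseudogenes and Trav7n-5, listed at 0 in 1 genotype of naive cells, did not keep their naive order. In Tconv, Rpl7a-ps11 was at 0 in the 3 WT libraries and at 0, 2.30 and 2.68 CPM in KO, and Gm8226 at 1.80, 2.67 and 2.05 CPM in WT and at 3.09, 0 and 0 CPM in KO. Trav7n-5 was at 0, 2.75 and 0.266 CPM in WT Tconv and 0.683, 1.41 and 0 CPM in KO Tconv. Trav12d-3 was at 0 in every HP1a Tconv library, so its order could not be read there. Its copy Trav12n-3 was higher in KO Tconv, at 0.766 to 1.36 CPM in WT and 1.98 to 4.18 CPM in KO. With Treg the groups of Trav12n-3 overlapped.

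The chromosome 10 zinc finger group was higher in both KO lines. In naive HP1g cells, the sum of Gm3055, Zfp781 and BC024063 was 5.68, 6.82 and 8.08 CPM in WT and 11.6, 15.9 and 18.2 CPM in KO, with log2 of the ratio of means at 1.15 beside 1.16 in naive HP1a cells. None of the KO libraries overlapped with WT (p = 0.1, the smallest possible, exact permutation test). The single genes had log2 fold changes of 0.99 (SE 0.26) for Gm3055, 1.42 (SE 0.29) for Zfp781 and 1.25 (SE 0.27) for BC024063, with unadjusted p of 0.00492, 0.00128 and 0.00175. The differences of the KO effects between the lines were 0.09 for Zfp781 and 0.28 for BC024063, with unadjusted p of 0.835 and 0.534. In HP1a Tconv the sum had a log2 ratio of 0.47, and with Treg of 0.77, with no overlap in either. Pde2a was also higher in naive HP1g KO cells, at 90.6, 61.7 and 93.7 CPM in WT and 122, 159 and 149.8 CPM in KO (0.81, SE 0.20), whereas in Tconv its groups overlapped. Zfp951 was at 11.7 to 16.2 CPM in WT and 8.54 to 13.0 CPM in KO of the HP1g line, with overlap.

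**Figure D5:**
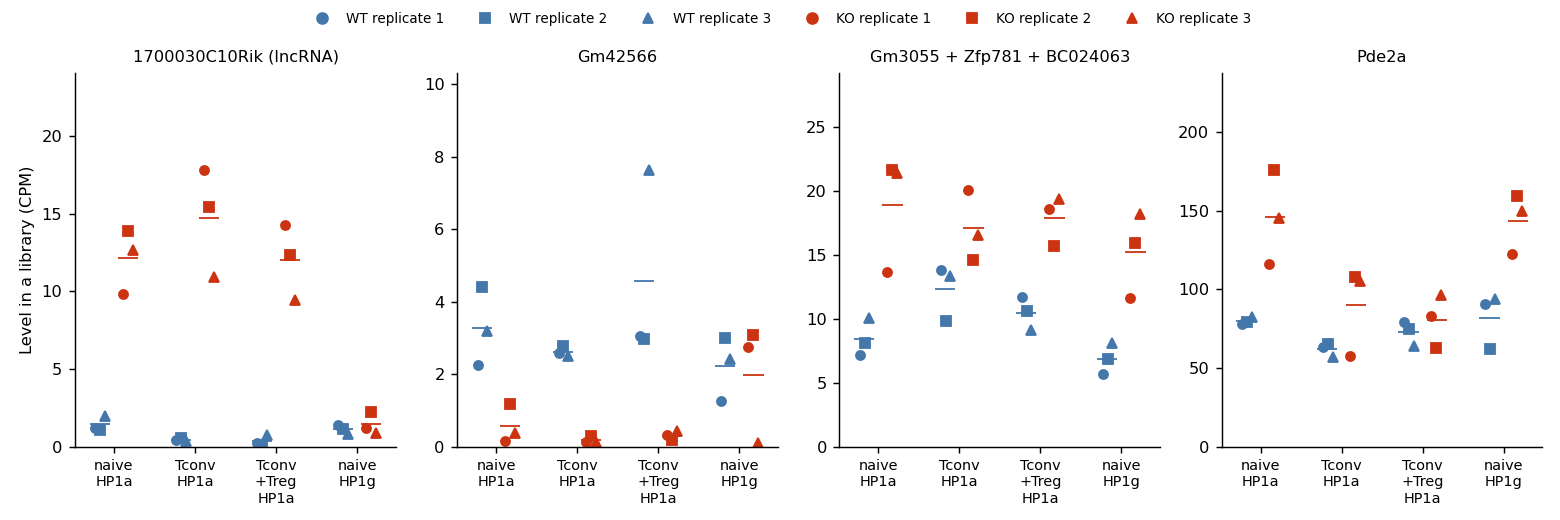
Levels (CPM) of the 1700030C10Rik long non-coding RNA, Gm42566, the summed chromosome 10 zinc finger genes and Pde2a in naive HP1a cells, HP1a Tconv, HP1a Tconv with Treg and naive HP1g cells (WT in blue, KO in red, 3 libraries a group, a line at each group mean). The first is high in KO of the 3 HP1a comparisons only, whereas the zinc finger sum is higher in KO in both lines, at 11.6 to 18.2 CPM against 5.68 to 8.08 CPM in naive HP1g cells.

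Whether a KO effect of naive HP1a cells differed from that of other cells was tested for all genes by an interaction term. Between the lines, 1 of 16090 genes (0.00622%) differed, the predicted gene Gm19951, and 0 with the block, where its adjusted p in edgeR was 0.153. In naive HP1a cells it was at 2.86, 3.15 and 4.27 CPM in WT and at 2.75, 2.45 and 1.83 CPM in KO, just below WT. Between Tconv and naive cells of the HP1a line, 1 of 17038 genes (0.00587%) differed without the block, the peptide transporter gene Slc15a2, and 19 (0.112%) with it. In naive HP1a cells Slc15a2 was at 16.1, 18.4 and 11.5 CPM in WT and at 16.5, 5.28 and 4.39 CPM in KO, which overlapped through replicate 1 of KO. Among the 19 was Ckb, which was higher in naive KO cells but lower in KO Tconv, at 64.3, 46.9 and 60.1 CPM in WT and 46.0, 27.3 and 40.1 CPM in KO. The difference of its KO effects was -1.42 (SE 0.17; adjusted p of 0.0219 with the block).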

How the data were processed

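RNA-seq was analysed in 6 naive libraries of the HP1a line, with HP1a Tconv and naive HP1g libraries for comparison, from 1 table of 56748 genes and 36 libraries. Per the labels and the study's methods, the authors trimmed reads with Trim Galore, aligned them with STAR to GRCm39 and quantified them with Salmon through nf-core/rnaseq, so the deposited values are estimated counts per gene, neither scaled nor filtered. Salmon divides reads that match several genes, which makes genes with near-copies less certain.

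Estimated counts were rounded, filtered with filterByExpr, scaled by TMM and tested with edgeR's quasi-likelihood test (edgeR 4.0.16, R 4.3.3) with no block and with the replicate number as a block, as every same-number correlation of deviations was above 0.1. P-values were adjusted by the Benjamini-Hochberg method across the whole set of tested genes. Called genes had an adjusted p under 0.05 and more than 1 log2 unit of change in either direction. Replicate numbers were compared by the F test of the same fit. Sums were compared by exact two-sided permutation tests. Alternatives were DESeq2 1.42.0, RLE scaling, no filter, no fold threshold, more libraries in the fit and each library left out. The scripts were tested on simulated data. Positions and shared stretches of 50 bases come from GENCODE on GRCm39, which lacked 731 of the genes, and promoters from RefSeq on GRCm38.p6. Intervals and floors cover counting error only.

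The comparison, the gene lists and the rule for named genes were chosen with earlier results of these data known. The rule took the HP1 genes, all called genes, the 8 highest and 8 lowest fold changes among genes of at least 5 CPM with no overlap and an unadjusted p under 0.05, the 8 genes of lowest p for replicate number, called interactions, genes near Cbx5 at an unadjusted p under 0.05, and the highest and lowest member of each list with at least 1 CPM, of which those of some lists are given by range only. The genes named for an adjusted p under 0.05 alone, further Treg genes, copies and neighbours, and the analyses of sums over copies, of promoters, of the 27 genes in other libraries and without the replicate 1 libraries, were chosen after the values were seen.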

Additional observations from a re-analysis of the deposited data

Results flagged for a closer look

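Each of 2 genes had a KO effect that differed between naive HP1a cells and other cells by the interaction test, and neither was called in naive HP1a cells. Gm19951, a predicted gene, had a KO effect in naive HP1a cells that was lower than in naive HP1g cells by 3.37 on the log2 scale (difference -3.37, SE 0.37; edgeR adjusted p of 0.0123, and 0.153 with the block, where 0 genes differed). It was at 2.86, 3.15 and 4.27 CPM in WT and 2.75, 2.45 and 1.83 CPM in KO of the HP1a line, and at 2.93, 4.49 and 3.28 CPM in WT and 32.9, 24.0 and 21.5 CPM in KO of the HP1g line. The genotypes overlapped in neither line, with KO below WT in the HP1a line and above it in the HP1g line.

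Slc15a2, a peptide transporter gene, had a KO effect in HP1a Tconv that was higher than in naive cells by 8.46 (SE 0.78; edgeR adjusted p of 0.0032). In Tconv it was at 0.0269, 0.0414 and 0.0532 CPM in WT and at 8.84, 9.76 and 7.26 CPM in KO, so the size of the difference rests on values near 0. In naive cells the genotypes overlapped. No group had more than 3 libraries, so single libraries were not tested as outliers.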

How the results depend on the processing

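Without the block, the count of 0 called genes in naive HP1a cells was also 0 with RLE scaling, with no fold threshold, with the 18 HP1a libraries in 1 fit and without any single library (0 to 0). It was 15 in DESeq2, which included the 12 genes of the blocked test, 5 with no filter, and 1 with the 12 naive libraries of both lines in 1 fit (1700030C10Rik). The replicate block gave 12 genes, the block with RLE scaling 12 (12 shared), in DESeq2 16 (11 shared), with no filter 60 (12 shared), and without replicate 1, 2 or 3 of both genotypes 24, 18 and 24. Of 2 alternatives added after seeing the data, leaving out both replicate 1 libraries gave 26 genes, and replicate 1 against replicates 2 and 3 as the block 11 (10 shared). The cause of these differences was not tested. The block changed no other call than those given here and beside the results.

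The 1138 genes that differed between replicate numbers became 4317 with no threshold on the span and 801 to 1457 without single libraries. The difference between the lines, with 1 gene, gave 13 in DESeq2, 8 with no filter, 0 with the block alone and 0 with RLE scaling, 27 with the block in DESeq2, and 0 to 3 without single libraries. The difference between Tconv and naive cells, with 1 gene, gave 66 in DESeq2, 5 with no filter, 19 with the block alone and 19 with RLE scaling, 102 with the block in DESeq2, and 0 to 6 without single libraries. The adjusted p of Gm19951 was 0.153 with the block and 0.0708, 0.0557 and 0.0664 without HP1a KO replicate 2, HP1a KO replicate 3 or HP1g WT replicate 3, and that of Slc15a2 was 0.0517 without WT Tconv replicate 2. The genes that also differed in Tconv numbered 5 to 7 and with Treg 4 to 5 without single libraries. With the replicate block in those comparisons they numbered 6 rather than 7 in Tconv and 4 with Treg.

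Of 1476 alternative values for single genes, 9 had the opposite sign. All 9 were KO effects in naive HP1a cells, where no gene was called without the block. Among their genes, Tagap had an adjusted p under 0.05 with the block. Without single libraries the log2 fold change ran from -0.43 to 1.18 in Tagap, -0.19 to 0.092 in Rpl7a, -0.034 to 0.39 in Adnp, -0.069 to 1.33 in Lrrc32, -0.65 to 0.094 in Ikzf2, -0.082 to 0.28 in Parp14 and -0.21 to 0.81 in Egr1. With the block and without replicate 2 it was 0.70 in Zfp965. No list median moved by more than the spread between replicates. At 0.0464 to 0.0735 CPM for 3 counts, most germline and receptor genes were below what this depth can resolve.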
